A study of Pleurotus tuoliensis with 2 samples.

Results

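The genes described here are the meiosis, sporulation and mating genes of *Pleurotus tuoliensis*, an edible mushroom, in mycelium sampled before and after physiological maturation. A unigene, the longest assembled isoform of a locus, was a member when its mean FPKM over the 6 libraries was above 1 and the name of its best match in the protein database Swiss-Prot contained meiosis, meiotic, sporulation, spore, mating, pheromone or synaptonemal, but not kinase, protease or peptidase. FPKM, the number of fragments scaled to transcript length and library size, is a level per length. The rule gave 37 members of 17030 unigenes, and 16496 unigenes passed the same filter on the mean and were tested. Of 41 unigenes with one of the words, 3 were left out as peptidases and 1, a short match to the recombinase DMC1, for a mean of 0.80 FPKM. The words select names and not functions, since the best match often lay in a distant organism: 21 members matched a protein of the fission yeast *Schizosaccharomyces pombe*, 6 one of the split-gill mushroom *Schizophyllum commune*, 3 a human protein and 2 one of *Saccharomyces cerevisiae*. The 37 members carried 29 different Swiss-Prot entries. In the broader database Nr, 30 members matched *Pleurotus ostreatus* and 31 matched a protein described as hypothetical.

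All samples were mycelia of the single strain ACCC 50869, grown in the dark in bottles of 820 g substrate at 25 °C for 37 days. The immature group was 3 bottles taken at that point (day 0), and the mature group was 3 other bottles kept for a further 35 days at 17 °C in the dark. Temperature, age of the culture and maturity therefore cannot be told apart. Each library was mRNA from mycelium scraped from the substrate of 1 bottle, a mixture of hyphae in which fewer cells of a type and less RNA per cell cannot be told apart. No primordium, fruiting body or basidium sample was analysed here.

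In mushrooms of this kind, mating is controlled by homeodomain proteins at one locus and by lipid-modified peptide pheromones and their membrane receptors at another. The receptors act through G proteins and control nuclear migration and the fusion of clamp cells, by which the dikaryon with its paired nuclei is formed and kept. Meiosis takes place late, in the basidia that line the gills of the fruiting body. There SPO11 cuts the DNA, DMC1 and its helpers pair the cut ends with the homologous chromosome, and the meiotic cohesin subunit REC8 holds sister chromatids together until the meiotic divisions. The products are packed into basidiospores. Vegetative mycelium is not known to undergo meiosis, and the comparison asks whether its transcripts were present in either stage and whether they differed between the stages.

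Membership required a mean above 1 FPKM over the 6 libraries, so that some transcript of each member was given in advance. As a group the members stood near the median of all unigenes tested and below that of tested unigenes with a Swiss-Prot name. Their median level was 27.2 FPKM, beside 28.1 FPKM for all unigenes tested and 39.9 FPKM for the 7083 tested unigenes with a Swiss-Prot name. In immature mycelia 37 members had a mean above 1 FPKM and in mature mycelia 36 did. Of the 16496 unigenes tested, 16212 and 16030 did so. A level above 0 was listed in all 6 bottles for 34 members, and for 14876 of all tested. Among the 7083 tested unigenes with a Swiss-Prot name, 7056 and 7051 had such means and 6928 were above 0 in all bottles. The members were thus near all unigenes tested in these counts. For a level above 0 in all bottles their share was below that of named unigenes. The range of the means over 6 libraries ran from 3.35 FPKM for DN2369_c0_g2, a match to the fission yeast kinase Ran1, to 1285 FPKM for the pheromone receptor match DN4607_c0_g1. Of the 37, 17 lay above the median of all unigenes tested, 9 in the top quartile and 12 in the bottom quartile. By role, the median level was 10.5 FPKM for the 8 mating and pheromone members, 14.9 FPKM for the 5 recombination and synapsis members, 27.4 FPKM for the 9 other meiosis members, 32.0 FPKM for the 10 matches to meiotically up-regulated proteins and 44.4 FPKM for the 5 sporulation and spore members. Mating and recombination thus had the lowest medians, and all but the sporulation group stood below the median of tested unigenes with a Swiss-Prot name.

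**Figure D1:**
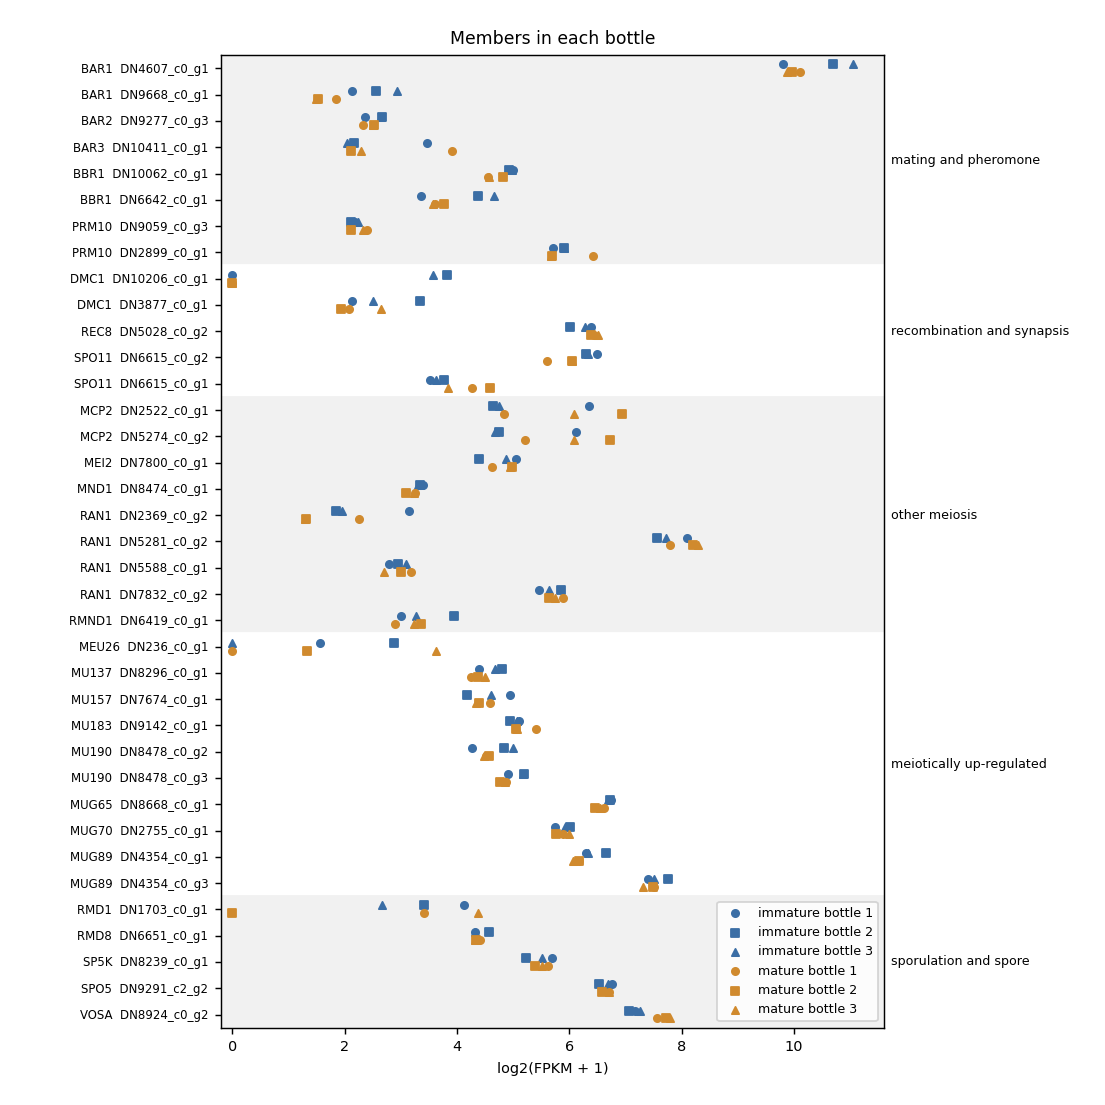
Level of each of the 37 members in each bottle, plotted as log2(FPKM + 1) with members grouped by role and named by Swiss-Prot entry (VOSA is Umv1, SP5K is SpoVK); blue marks immature and orange mature bottles, and a circle, square or triangle marks bottle 1, 2 or 3. The colours are mixed for most members, with no bottle of any other member above 311 FPKM, and the receptor match DN4607_c0_g1 stands apart at 891 to 2123 FPKM.

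None of the 37 members passed the thresholds of the study in either direction. These were an unadjusted p up to 0.05 and a log2 ratio of 1 or more in size. Over all unigenes tested 496 did, or 3.01%, with 1.18% higher and 1.82% lower in mature mycelia. Among the 7083 tested unigenes with a Swiss-Prot name, as all members have, 133 did. The test was limma on log2(FPKM + 1) and not the study's own test, which needs read counts. Every log2 ratio below is thus mature minus immature on that scale and understates differences of low genes. No member passed a Benjamini-Hochberg adjusted p below 0.05 in limma, against 11 unigenes, or 0.0667%, of all tested. An unadjusted limma p of at most 0.05 was reached by 6 members, or 16.2%, beside 15.4% of all unigenes tested. Of these, 2 were higher in mature mycelia (background 6.09%) and 4 were lower (background 9.33%). The share of members was near the background in each case. Immature and mature bottles were fully separated for 10 members (27.0%), with 3 higher and 7 lower, where the background was 22.9% in all, 8.69% higher and 14.2% lower. The median log2 ratio of the members was −0.10, beside −0.07 for all unigenes tested, with 16 members above 0 and 21 below. After quantile normalization the median of the members was 0.0089 and that of all unigenes −0.0035, so that its direction was not kept. For 25 members, or 67.6%, the 95% interval of the log2 ratio lay within 1 of 0. The background was 62.3% of all unigenes tested and 78.85% of those with a Swiss-Prot name. All 25 were among the 30 members of at least 500 bases. The interval of each of the 7 shorter members reached beyond that limit on at least one side.

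The count at the unadjusted p changed with the bottle left out, in fits that each had fewer bottles and another background. It was 11 of 37 without immature bottle 1 (background 16.7%), 2 without immature bottle 2 (13.6%), 2 without immature bottle 3 (11.4%), 4 without mature bottle 1 (18.9%), 3 without mature bottle 2 (10.6%) and 3 without mature bottle 3 (10.0%). Without immature bottle 1 the groups did not overlap for 20 members, against a background of 36.5%. Of the 6 members, the velvet match DN8924_c0_g2 kept an unadjusted p of at most 0.05 under 6 of 6 such omissions and the SPO11 match DN6615_c0_g2 under 5 of 6.

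**Figure D2:**
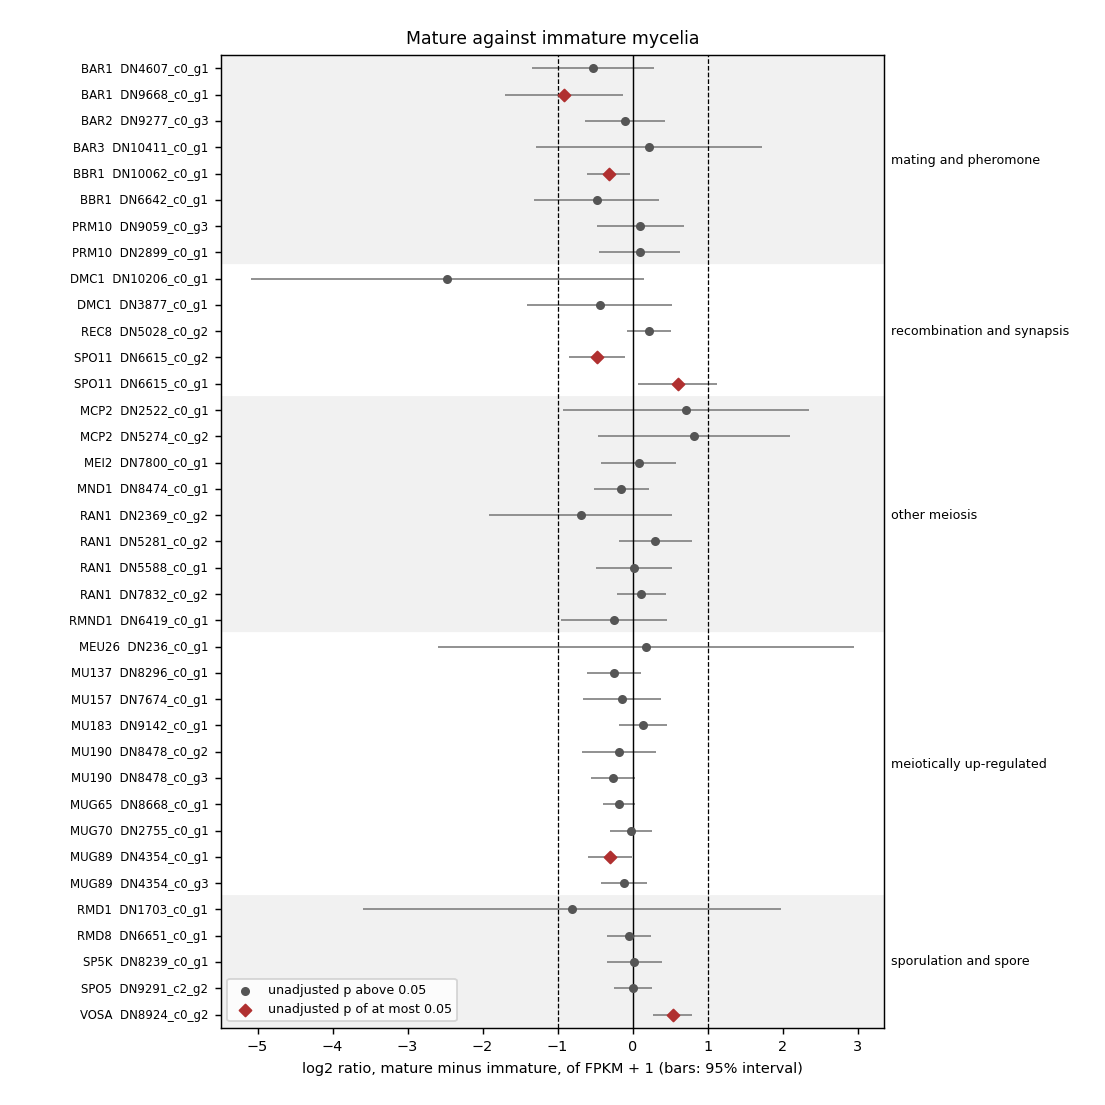
Log2 ratio of mature to immature mycelia on the log2(FPKM + 1) scale for each member, with its 95% interval from limma and members grouped by role. The ratios run from −2.47 to 0.82, with the widest intervals on unigenes under 500 bases and the highest value with an interval clear of 0 at 0.60.

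Pheromone receptors made up 6 of the 8 mating members, and all were matched to receptors of the B mating-type locus of *S. commune*. They carried the Gene Ontology term for signalling by G protein-coupled receptors, which 27 of all unigenes tested carried. Their median level was 10.5 FPKM and their median log2 ratio was −0.40. The abundant receptor match was DN4607_c0_g1, a fragment of 382 bases matched to BAR1. Its immature bottles held 891, 1656 and 2123 FPKM and its mature bottles 1107, 996 and 938 FPKM. Immature bottles 2 and 3 were the high ones, while immature bottle 1 lay below every mature bottle, so the groups overlapped. The means were 1557 ± 622 and 1014 ± 85.5 FPKM (SD, n = 3 each), with a log2 ratio of −0.53 (SE 0.33, 95% interval −1.35 to 0.28) and an adjusted p of 0.481 in limma. The log2 ratio was −0.89 without immature bottle 1, with a limma p of 0.00631 before and 0.176 after adjustment, and −0.26 without immature bottle 3. This unigene ranked above 99.4% of all tested, and alone it made up the larger part of the summed FPKM of the members in immature bottles 2 and 3. Without it, the members summed to 1569 to 1701 FPKM in immature and 1601 to 1784 FPKM in mature bottles.

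A further match to BAR1, DN9668_c0_g1, had the lowest levels of the receptors in mature mycelia. Its immature bottles held 3.36, 4.89 and 6.68 FPKM and its mature bottles 2.60, 1.89 and 1.82 FPKM. Every mature bottle lay below every immature bottle. The means were 4.98 ± 1.66 and 2.10 ± 0.43 FPKM (SD, n = 3 each), a log2 ratio of −0.92 (SE 0.32, 95% interval −1.70 to −0.13). Its unadjusted p was 0.0290 in limma and its adjusted p 0.271, and its log2 ratio fell short of the fold threshold. It passed the thresholds of the study with a pseudocount of 0.5 (−1.04) or 0.1 (−1.17), and without immature bottle 1 (−1.12) or mature bottle 1 (−1.03). Nr listed this unigene as a partial B mating-type pheromone receptor.

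Both matches to the receptor BBR1 were lower in mean in mature mycelia, with different spreads. DN10062_c0_g1, which Nr matched to a receptor of *Pleurotus djamor*, had 30.91, 29.61 and 30.48 FPKM in immature and 22.36, 27.32 and 22.84 FPKM in mature bottles. The groups did not overlap, and the means of 30.3 ± 0.66 and 24.2 ± 2.74 FPKM (SD, n = 3 each) gave a log2 ratio of −0.32 (SE 0.12). The limma p was 0.0324 before and 0.280 after adjustment. DN6642_c0_g1 was at 9.26, 19.66 and 24.23 FPKM in immature and 11.14, 12.65 and 10.89 FPKM in mature bottles. As with the abundant BAR1 match, immature bottle 1 was the low one and the groups overlapped (log2 ratio −0.48, SE 0.34). Without immature bottle 1 the log2 ratio of DN6642_c0_g1 was −0.86, with a limma p of 0.00379 before and 0.162 after adjustment, and over the other omissions of 1 bottle it was nearest to 0 at −0.22.

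In the remaining receptors the stages overlapped. The BAR2 match DN9277_c0_g3 was at 4.14, 5.35 and 5.27 FPKM in immature and 4.02, 4.78 and 4.70 FPKM in mature bottles (log2 ratio −0.10, SE 0.22). The BAR3 match DN10411_c0_g1, of 365 bases, was at 10.0, 3.50 and 3.14 FPKM against 14.06, 3.35 and 3.90 FPKM. In that gene bottle 1 of each stage was high and the other 4 bottles lay close together (log2 ratio 0.22, SE 0.62). The receptors thus ranged from 1.82 FPKM in a bottle of DN9668_c0_g1 to 2123 FPKM in a bottle of DN4607_c0_g1, and only DN4607_c0_g1 had a mean above the median of all unigenes tested.

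**Figure D3:**
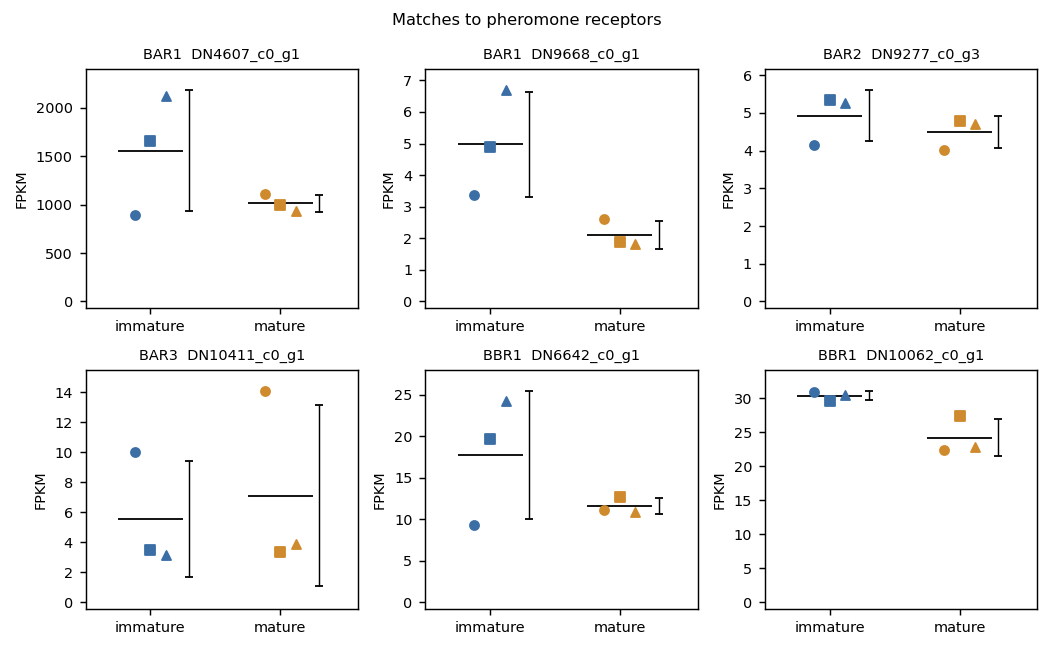
FPKM of the 6 receptor matches, 1 panel each with its own linear axis from 0, in immature (blue) and mature (orange) bottles; a circle, square or triangle marks bottle 1, 2 or 3, the line the mean and the bar beside it the SD. The stages do not overlap for DN9668_c0_g1 and DN10062_c0_g1, and in DN4607_c0_g1 and DN6642_c0_g1 the low immature value is bottle 1.

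The other 2 mating members matched Prm10 proteins, membrane proteins named in yeast for regulation by pheromone. DN2899_c0_g1 was at 51.39, 59.25 and 59.22 FPKM in immature and 85.28, 51.06 and 50.21 FPKM in mature bottles. Mature bottle 1 was above every other bottle, and the log2 ratio of 0.09 (SE 0.22) became −0.16 without it. DN9059_c0_g3 was at 3.53, 3.32 and 3.73 FPKM against 4.29, 3.31 and 4.04 FPKM (log2 ratio 0.10, SE 0.24).

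Around the receptors, other parts of pheromone signalling were looked up by name. The words were for G protein subunits, kinases of the pheromone cascade, the transcription factor STE12, enzymes that put the lipid on the pheromone, and the cyclic AMP branch. The list held 38 tested unigenes, and no match to STE12 was among them. Its words also caught some proteins of other function, such as a farnesyltransferase of haem synthesis and the subunit ste20 of target of rapamycin complex 2. None passed the thresholds of the study. An unadjusted limma p of at most 0.05 was found for 8 (21.1%, background 15.4%), of which 5 were higher and 3 lower (backgrounds 6.09% and 9.33%), and the median log2 ratio was 0.07. Their median level of 73.4 FPKM was above that of the receptors. The 3 unigenes left out as peptidases matched Kex1, a pheromone-processing carboxypeptidase, and had log2 ratios of −0.35, −0.21 and −0.05. The groups did not overlap for 2 of them, DN5093_c0_g1 and DN5093_c0_g2, both lower in mature mycelia (background 14.2% lower). DN5093_c0_g2 was at 76.44, 63.63 and 66.88 FPKM in immature and 59.86, 51.53 and 50.38 FPKM in mature bottles. Its unadjusted limma p was 0.0252, and that of DN5093_c0_g1 was 0.0697.

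Recombination began with SPO11, the enzyme that makes the double-strand breaks of meiosis, and here 2 unigenes of 1 assembled locus differed between the stages in opposite directions. DN6615_c0_g2, of 3064 bases and matched to human SPO11, had 89.02, 78.10 and 79.60 FPKM in immature and 47.38, 65.46 and 65.42 FPKM in mature bottles. Every mature bottle was below every immature bottle, with means of 82.2 ± 5.92 and 59.4 ± 10.4 FPKM (SD, n = 3 each). The log2 ratio was −0.48 (SE 0.15, 95% interval −0.85 to −0.10), with a limma p of 0.0209 before and 0.250 after adjustment. DN6615_c0_g1, of 800 bases and matched to the fission yeast orthologue Rec12, was at 10.50, 12.59 and 11.36 FPKM against 18.30, 23.17 and 13.39 FPKM. Here every mature bottle was above every immature bottle, with means of 11.5 ± 1.05 and 18.3 ± 4.89 FPKM (SD, n = 3 each). The log2 ratio was 0.60 (SE 0.22, 95% interval 0.07 to 1.13), with a limma p of 0.0321 before and 0.280 after adjustment, and the unadjusted p stayed at or below 0.05 in 1 of 6 omissions of a bottle.

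The 2 SPO11 unigenes matched 1 protein in Nr, and the table does not show whether they are pieces, isoforms or copies. The ratio of the shorter to the longer was 0.118, 0.161 and 0.143 in the immature and 0.386, 0.354 and 0.205 in the mature bottles. The mean log2 of that ratio was higher by 1.07 in mature mycelia, and an exact two-sided permutation test gave p = 0.1, the smallest that 3 bottles against 3 allow. This ratio was chosen after the values were seen. Because the 2 unigenes each separated the stages fully and in opposite directions, the test could give no other value and adds nothing to them. A similar pair outside the rule, also named after its values were seen, was the pair of matches to MLH3, a mismatch-repair protein of meiotic crossovers, which share a protein in Nr. DN8794_c0_g1 had a log2 ratio of 0.34 with a limma p of 0.0282 and DN6094_c0_g2 one of −0.62 with a limma p of 0.00516, and the stages did not overlap in either.

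REC8, the meiotic cohesin, had a match at an appreciable level in both stages. DN5028_c0_g2 was at 82.76, 63.73 and 76.99 FPKM in immature and 86.26, 83.14 and 89.84 FPKM in mature bottles. Every mature bottle was above every immature bottle, by a narrow margin at immature bottle 1, and the log2 ratio of 0.22 (SE 0.12, 95% interval −0.08 to 0.51) had a limma p of 0.120. A second unigene with the same protein in Nr but no Swiss-Prot name, DN5314_c0_g3, was close to it in each bottle, where the ratio of DN5028_c0_g2 to DN5314_c0_g3 was 0.90 to 1.04. The match to the mitotic counterpart RAD21, DN6880_c0_g2, was at 25.57, 26.42 and 27.3 FPKM against 21.34, 23.51 and 20.44 FPKM (log2 ratio −0.27), with a limma p of 0.0437 before and 0.310 after adjustment. The REC8 match thus stood above the RAD21 match per length in every bottle.

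The matches to DMC1, the recombinase of meiosis, were low. DN3877_c0_g1, of 532 bases, was at 3.38, 9.20 and 4.71 FPKM in immature and 3.24, 2.83 and 5.28 FPKM in mature bottles, with overlapping groups (log2 ratio −0.44, SE 0.40). DN10206_c0_g1, a fragment of 251 bases, was listed at 0, 13.21 and 10.95 FPKM in immature bottles and at 0 in every mature one. It was the member with the lowest log2 ratio, −2.47 (SE 1.07, 95% interval −5.09 to 0.15), and its limma p was 0.0604 before and 0.342 after adjustment. Among the 147 unigenes within 3 bases of its length, the smallest value above 0 was 3.42 to 5.33 FPKM depending on the bottle, so its levels rested on few fragments. Without immature bottle 1, itself at 0, the log2 ratio was −3.70 and past the thresholds of the study, with a limma p of 4.99e-05 and an adjusted p of 0.0637. Both unigenes matched DMC1 of *P. ostreatus* in Nr.

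MND1, a partner of DMC1 in strand exchange, is counted by its name with the other meiosis members, and its match was low and even. DN8474_c0_g1 was at 9.56, 9.10 and 8.92 FPKM in immature and 8.51, 7.59 and 8.47 FPKM in mature bottles. The groups did not overlap, with means of 9.19 ± 0.33 and 8.19 ± 0.52 FPKM (SD, n = 3 each), yet the log2 ratio was only −0.15 (SE 0.15).

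**Figure D4:**
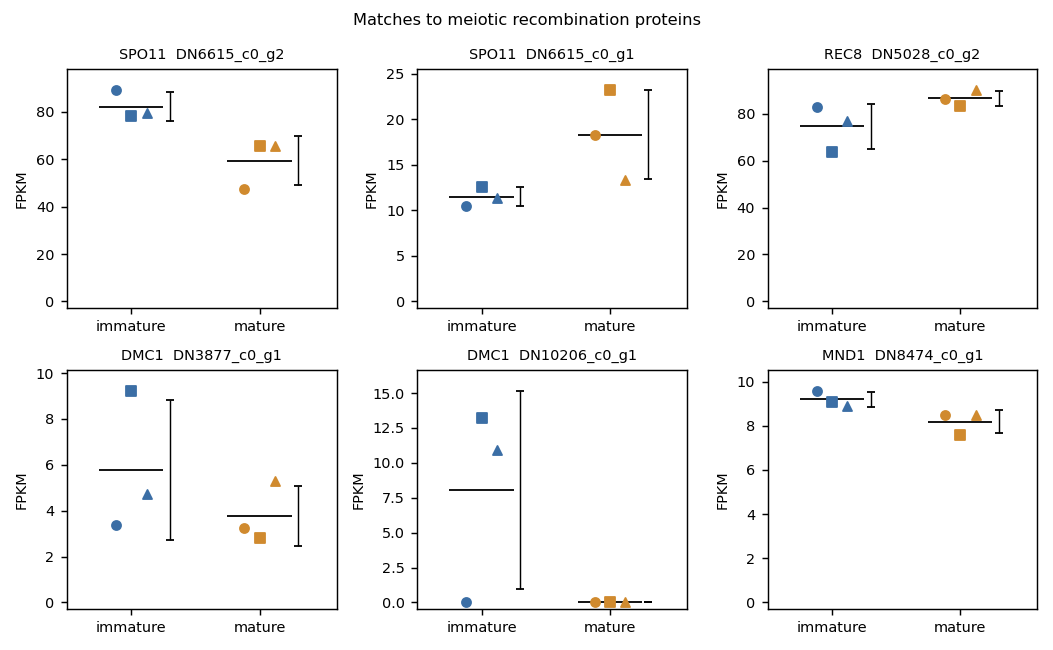
FPKM of the matches to SPO11, REC8, DMC1 and MND1, 1 panel each with its own linear axis from 0, in immature (blue) and mature (orange) bottles; a circle, square or triangle marks bottle 1, 2 or 3, the line the mean and the bar beside it the SD. The 2 SPO11 unigenes part in opposite directions, and DN10206_c0_g1 is at 0 in all bottles but immature 2 and 3.

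A wider set of 17 symbols of meiotic cells was looked up, and 9 of them were met by 15 unigenes, of which 6 were the members just described. The 15 summed to 366.6 to 429.6 FPKM in immature and 366.4 to 387.5 FPKM in mature bottles, with 3 of the 15 at 0 in all mature bottles. Of the crossover factors MSH4 and MSH5, which work as a pair, the longer MSH4 match DN4821_c0_g1 was at 0.22 to 3.55 FPKM, the shorter, DN4821_c0_g2, at 11.17 FPKM in immature bottle 2 and 0 in every other bottle, and the MSH5 matches DN7908_c0_g1 and DN7908_c0_g2 were at 6.74 to 11.95 FPKM. A match to HFM1, the helicase of meiotic crossing over, DN741_c0_g1, was at 0.17 to 1.02 FPKM and did not pass the filter. The other HFM1 match, DN9519_c0_g1, of 233 bases, was listed at 18.3 FPKM in immature bottle 1 and at 0 in the other bottles. Of 13 that passed it, none met the thresholds of the study, 4 (30.8%, background 15.4%) had an unadjusted limma p of at most 0.05, with 2 higher and 2 lower, and the median level was 8.69 FPKM. These 4 were the 2 SPO11 and the 2 MLH3 matches described above. DMC1, MSH4 and HFM1 had the lowest mean levels among these factors, and MLH3, REC8 and the longer SPO11 match the highest. Under other names, 52 tested unigenes of the recombination and chromosome-cohesion machinery, most of which also serve dividing cells, had a median level of 17.4 FPKM and a median log2 ratio of −0.16. None of the 52 met the thresholds of the study, and 6 (11.5%, background 15.4%) had an unadjusted limma p of at most 0.05, with 1 higher and 5 lower.

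The switch into meiosis in fission yeast is made by the RNA-binding protein Mei2, which the kinase Ran1, also called Pat1, holds inactive while cells grow. The Mei2 match DN7800_c0_g1 was at 32.25, 20.06 and 28.19 FPKM in immature and 23.62, 30.75 and 29.79 FPKM in mature bottles, with overlapping groups (log2 ratio 0.08, SE 0.21). Its Gene Ontology terms concerned chloride transport, not RNA, so its name is uncertain. The 4 matches to Ran1, whose Swiss-Prot name lacks the word kinase, had a median log2 ratio of 0.07. The highest, DN5281_c0_g2, was at 273, 187 and 210 FPKM against 220, 295 and 311 FPKM (log2 ratio 0.30, SE 0.20). Its mature bottles 2 and 3 were the high ones, and mature bottle 1 lay within the immature range. DN7832_c0_g2 had a log2 ratio of 0.11 and DN5588_c0_g1 one of 0.02. The short DN2369_c0_g2, at 1.45 to 7.90 FPKM, had one of −0.69 (SE 0.50).

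The highest log2 ratio of any member belonged to a match to Mcp2, a fission yeast meiotic coiled-coil protein. DN5274_c0_g2 was at 68.49, 25.94 and 24.64 FPKM in immature and 35.96, 104.4 and 66.53 FPKM in mature bottles. Mature bottles 2 and 3 were high, but so was immature bottle 1, and the groups overlapped (log2 ratio 0.82, SE 0.53, 95% interval −0.47 to 2.10). The other match, DN2522_c0_g1, had the same bottles high, at 80.28, 23.99 and 26.00 FPKM against 27.51, 122.2 and 66.98 FPKM (log2 ratio 0.71, SE 0.67). Both matched 1 protein in Nr, as did DN5274_c0_g1, which had no Swiss-Prot name. The ratio of DN2522_c0_g1 to DN5274_c0_g2 was 0.765 to 1.172 over the bottles. Whether they are pieces of 1 transcript was not tested, so the shared pattern may not be a repeat in a second gene. Without immature bottle 1 the log2 ratio of DN5274_c0_g2 was 1.29 with an unadjusted limma p of 0.0443, past the thresholds of the study. The last of the meiosis members, DN6419_c0_g1, matched human RMND1, which despite its name, required for meiotic nuclear division, is a protein of mitochondrial translation. It was at 6.44 to 14.50 FPKM over the 6 bottles with a log2 ratio of −0.25.

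The 10 matches to proteins named meiotically up-regulated or meiotic expression up-regulated were named from fission yeast, where transcripts of these genes rise in meiosis. Many of them have other work there, and in the mushroom their part in meiosis is not known. Their median log2 ratio was −0.16, 8 of the 10 were below 0, as were 9511 of the 16496 unigenes tested. The bottles of the stages did not overlap for 3, all of them lower, against a background of 14.2% lower. The clearest was a match to Mug89, DN4354_c0_g1, at 78.15, 99.23 and 80.11 FPKM in immature and 70.99, 70.92 and 66.01 FPKM in mature bottles. Every mature bottle was below every immature bottle (log2 ratio −0.30, SE 0.12), with a limma p of 0.0478 before and 0.319 after adjustment. A second Mug89 match of the same assembled locus, DN4354_c0_g3, was at 167.8, 215.0 and 181.2 FPKM against 180.2, 179.9 and 158.2 FPKM, with overlapping groups and a log2 ratio of −0.12. The Mug65 match DN8668_c0_g1 and 1 of the 2 Mug190 matches, DN8478_c0_g3, were the others without overlap, at log2 ratios of −0.18 and −0.26. The matches to Mug70, Mug137, Mug157, Mug183 and the other Mug190 match had log2 ratios between −0.25 and 0.14. The Meu26 match DN236_c0_g1, of 303 bases, was listed at 1.95, 6.34 and 0 FPKM against 0, 1.52 and 11.33 FPKM, too scattered to compare (log2 ratio 0.17, SE 1.14).

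Among the sporulation and spore members, the match to Umv1 of *Ustilago maydis* had the smallest p of all members. Umv1 is a velvet protein, one of a fungal family of regulators that tie development and spore formation to light. DN8924_c0_g2, of 5468 bases, had 142.6, 133.0 and 151.6 FPKM in immature and 188.6, 210.2 and 221.7 FPKM in mature bottles. Every mature bottle was above every immature bottle, with means of 142 ± 9.30 and 207 ± 16.8 FPKM (SD, n = 3 each). The log2 ratio was 0.53 (SE 0.11, 95% interval 0.28 to 0.79), below the fold threshold of the study, with a limma p of 0.00229 before and 0.147 after adjustment. Its best match in Nr was a protein of the button mushroom *Agaricus bisporus*.

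Velvet proteins outside the rule were compared with it after their values were seen. The match to a probable velvet-family sexual development regulator of *Laccaria bicolor*, DN7754_c0_g1, was at 30.76, 36.49 and 28.32 FPKM in immature and 42.79, 39.84 and 43.92 FPKM in mature bottles (log2 ratio 0.40), with a limma p of 0.0177 before and 0.233 after adjustment. A match to VelB of the same species, the 327-base DN8717_c1_g2, was at 120.5, 101.6 and 143.7 FPKM against 172.3, 175.7 and 181.2 FPKM (log2 ratio 0.54), with a limma p of 0.0083 before and 0.194 after adjustment. In both, as in the Umv1 match, the stages did not overlap and the mature bottles were higher. The other 2 VelB matches, DN8717_c1_g1 and DN2718_c0_g1, had log2 ratios of 0.19 and −0.07. DN8717_c1_g1, of 1389 bases, is of the same assembled locus as the shorter DN8717_c1_g2, and its stages overlapped. None of these velvet unigenes passed an adjusted limma p of 0.05.

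The other sporulation members were level or too scattered to compare. Spo5, an RNA-binding protein needed for meiosis and spore formation in fission yeast, had a match, DN9291_c2_g2, at 108.2, 90.9 and 102.0 FPKM in immature and 103.5, 94.9 and 103.9 FPKM in mature bottles. Its log2 ratio of 0.01 (SE 0.10) was among the most precise of the members. The match to the *Bacillus subtilis* stage V sporulation protein SpoVK, DN8239_c0_g1, is an ATPase by family and had a log2 ratio of 0.02 at 36.62 to 50.98 FPKM. Of the matches to yeast Rmd proteins, named for a requirement in meiotic nuclear division, the Rmd8 match DN6651_c0_g1 had a log2 ratio of −0.05. The 338-base Rmd1 match DN1703_c0_g1 was listed at 16.45, 9.62 and 5.36 FPKM against 9.60, 0 and 19.67 FPKM (log2 ratio −0.81, SE 1.14).

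Markers of fruiting bodies and asexual spores and a list of cell-cycle names gave the setting. Of 8 fruiting-body symbols 4 were met, by 11 unigenes. Their sum was 805.1 to 910.2 FPKM over the immature bottles, against 641.1 to 682.5 FPKM over the mature ones. The largest fall in mean was that of DN8573_c0_g1, a match to the fruiting body protein SC1. Its bottles held 339.1, 433.2 and 262.9 FPKM against 210.1, 187.8 and 179.4 FPKM (log2 ratio −0.81). Its limma p was 0.00584 before and 0.183 after adjustment. The fall was not shared by all 11, of which 4 had log2 ratios above 0 and 7 below (median −0.20). Of the symbols met, CGL2 was met by a cystathionine gamma-lyase and not by a galectin. Among 20 tested unigenes named for fruiting, velvet or light, 1 passed the thresholds of the study in each direction, and both matched the hydrophobin SC3, a coat protein of aerial hyphae in *S. commune*. DN5369_c0_g1 was at 3.83, 8.56 and 2.62 FPKM in immature and 11.52, 8.45 and 11.77 FPKM in mature bottles (log2 ratio 1.06), with a limma p of 0.0345 before and 0.286 after adjustment. DN6631_c0_g1 was lower in mature bottles, at 47.03, 66.2 and 33.36 FPKM against 15.71, 17.55 and 17.27 FPKM (log2 ratio −1.43), with a limma p of 0.00111 before and 0.120 after adjustment. Of 7 symbols of asexual sporulation, 2 spellings of CON6, a protein of conidia in *Neurospora crassa*, were met by 2 unigenes, which summed to 16.44 to 20.41 FPKM in immature and 23.39 to 28.74 FPKM in mature bottles. Among 75 tested unigenes named for mitosis and the cell cycle, 3 were higher and 13 lower at an unadjusted limma p of at most 0.05, against backgrounds of 6.09% and 9.33%, with a median log2 ratio of −0.10, the same as that of the members. Of these 75, 1 passed the thresholds of the study, a 345-base match to the cyclin-dependent kinase CDK9, DN1585_c0_g1. It was at 54.05, 32.45 and 71.03 FPKM in immature and 28.66, 17.4 and 16.88 FPKM in mature bottles, with no overlap (log2 ratio −1.25). Its limma p was 0.00964 before and 0.200 after adjustment. The longer CDK9 match of the same assembled locus, DN1585_c0_g2, of 1507 bases, had overlapping groups with means of 24.3 and 22.5 FPKM. Its log2 ratio was −0.11, with a limma p of 0.359. The part of any other cell type in the members' values was not tested.

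These levels alone do not show whether a sexual programme was on in either stage, and only the presence of transcripts can be described. Transcripts matched to mating receptors, SPO11, REC8, MND1, MSH5, MLH3 and velvet proteins were listed above 0 in every bottle of both stages. So were 14876 of the 16496 unigenes tested and 6928 of the 7083 with a Swiss-Prot name. Membership itself required a mean above 1 FPKM. The longest matches to DMC1, MSH4 and HFM1 were also above 0 in every bottle. They lay below 10 FPKM throughout, as did the MND1 match. The DMC1, MSH4 and HFM1 matches listed at 0 in most bottles were fragments of 233 to 272 bases. No member of the set passed the thresholds of the study between the stages in the limma test of all 6 bottles. Whether any cells were in meiosis was not measured.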

How the data were processed

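The authors sequenced mRNA libraries from 6 bottles on an Illumina HiSeq 2000, assembled the reads of all libraries together with Trinity, clustered contigs with TGICL and deposited 1 table of FPKM values per unigene and bottle with annotations from Swiss-Prot, Nr, eggNOG, Gene Ontology and KEGG. The quantifier's version and the mapped reads per unigene were not given in the sources used here, so no counting interval could be set on a level. Values summed to 1206000 to 1239000 FPKM per library, and 15840 to 16031 unigenes were above 0. No genome or sequence was used here.

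Unigenes with a mean FPKM above 1 were fitted with limma 3.58.1 in R 4.3.3 (trend in the variance prior, two-sided) on log2(FPKM + 1), 3 bottles against 3, with Benjamini-Hochberg adjustment over all 16496. The test of the study needs read counts, so its thresholds were applied to the limma result. Bottles were mapped to groups by the sample title and bottle number in the column names. The study calls the bottles biological replicates. Members, roles and lists were chosen with earlier results of these data known, and the words for G protein subunits were widened after the names were seen. All members could be named, with values in every bottle for mating and recombination members, for those with an unadjusted p of at most 0.05 and for the 5 highest and 5 lowest in level. Alternatives changed the pseudocount, filter, scaling, variance prior, minimum length and replicate block, counted each Swiss-Prot entry once, and left out each bottle. The fit was tested on simulated data with known changes.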

Additional observations from a re-analysis of the deposited data

How the results depend on the processing

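Pseudocounts of 0.1 and 0.5 each put 1 member past the thresholds of the study, lower in mature mycelia. Of the 16496 unigenes tested, 566 and 541 passed them there in either direction. With quantile normalization 3 members had an unadjusted limma p of at most 0.05 (background 15.26%), and with the replicate block 2 did (background 12.43%), against 6 (background 15.42%). The bottle numbers are shared between the stages, but same-numbered bottles did not deviate together (correlations of −0.0894, −0.0431 and −0.00969 over unigenes), so the block pairs nothing known. With the block 0 of all unigenes tested passed an adjusted limma p of 0.05, against 11, and 2051 against 2544 an unadjusted one. Restricting the fit to unigenes of at least 500 bases raised the count of all unigenes past an adjusted limma p of 0.05 to 101, and leaving out 1 bottle gave 0 to 5. Leaving out 1 bottle, the members past the thresholds of the study ranged from 0 to 1 higher and 0 to 2 lower. Over all unigenes tested, 473 to 685 passed them in either direction. Members at an unadjusted p ranged from 2 to 11, beside a background of 10.03% to 18.88%. Members without overlap ranged from 10 to 20, where the background also rose, to between 28.76% and 40.65%. No member passed an adjusted limma p of 0.05 under any of these settings. The log2 ratio changed sign for DN9277_c0_g3 with quantile normalization (0.0545) and for DN9291_c2_g2 with a common sum of FPKM (−0.012). Leaving out 1 bottle, it ranged from −0.35 to 0.67 for DN10411_c0_g1, −0.16 to 0.22 for DN2899_c0_g1, −0.81 to 1.0 for DN236_c0_g1, −0.061 to 0.063 for DN9291_c2_g2, −0.89 to −0.26 for DN4607_c0_g1, −0.86 to −0.22 for DN6642_c0_g1, −1.12 to −0.72 for DN9668_c0_g1 and −3.70 to −1.79 for DN10206_c0_g1. The median log2 ratio of the members, −0.10, became 0.0089 with quantile normalization and ranged from −0.15 to −0.041 when 1 bottle was left out. The mapped reads per unigene were not used here, so the counting error of members under 500 bases could not be set.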
